A study of Mus musculus with 6 samples.

Results

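Carboxylesterases and flavin monooxygenases are 2 families of enzymes that act on drugs, other foreign compounds and lipids in the liver. The genes described here are 5 carboxylesterases, Ces1d, Ces1e, Ces1g, Ces2a and Ces2c, and 4 flavin monooxygenases, Fmo1, Fmo2, Fmo4 and Fmo5. They were chosen by name, with earlier results of these data known. Each is 1 row of the count files, and they are 9 of the 23284 genes counted. RNA was sequenced from liver of mice of strain C57BL6/J aged 8 weeks, in 3 wild type libraries (WT1, WT2 and WT3) and 3 libraries of genotype Trim24 -/- (KO1, KO2 and KO3). Trim24 encodes a nuclear receptor cofactor of the TIF1 family. No treatment is given for either group. The labels give neither the deleted part of Trim24, nor the sex of the mice, nor whether each library came from its own mouse, so the p-values reflect only how these libraries vary, which may be technical.

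Carboxylesterases split ester, amide and thioester bonds, mostly in the lumen of the endoplasmic reticulum, and hepatocytes are rich in them. The Ces1 and Ces2 enzymes clear ester drugs and also hydrolyse cholesteryl esters and triacylglycerols, and Ces1d, known as triacylglycerol hydrolase, releases stored fat for the assembly of very low density lipoprotein. Flavin monooxygenases sit in the membrane of the endoplasmic reticulum and use NADPH and oxygen to oxygenate nitrogen and sulfur atoms of their substrates, beside the cytochromes P450.

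Reads counted in genes ranged from 1495583 to 1732309 in wild type and from 1607276 to 2872421 in knockout libraries. The limit that a count of 0 allows, 3 counts, was 1.04 to 2.10 CPM (counts for every 1e6 reads of the tested genes, after TMM scaling), and covers counting error only. Trim24 fell from 25.8 ± 4.1 to 1.21 ± 0.59 CPM (SD, n = 3 per group), a log2 fold change of -4.46 (SE 0.39, edgeR adjusted p = 2.1e-05). The 8 hepatocyte markers summed to 100197 to 112761 CPM in wild type and to 94814, 68624 and 97603 CPM in KO1, KO2 and KO3. Most of this was Alb, at 75346 to 88939 CPM in wild type and 72359, 50809 and 77978 CPM in KO1, KO2 and KO3. Transcripts of pancreatic acinar cells set KO1 and KO3 apart. The sum of 10 acinar markers was 796 CPM in KO1 and 515 in KO3, while KO2 had 13.6 and the wild type libraries 11.9 to 33.5 CPM. Results on the genes below are therefore also given with KO2 as the only knockout library, which assumes that KO2 would vary as the wild type libraries do. That did not hold for Ces1d, whose SD was 48.5 CPM in knockout and 8.0 CPM in wild type. Adjusted p-values with KO2 alone therefore do not measure the spread of the knockout libraries.

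Of the 9 genes, 8 passed the filter on low counts and were tested, all but Fmo4. At an edgeR adjusted p under 0.05, 4 were lower in the knockout and 0 were higher, where 2.65% of all 9180 tested genes were lower and 3.08% higher. The 4 that fell were all carboxylesterases: Ces1d, Ces1e, Ces1g and Ces2a. No tested flavin monooxygenase passed the threshold. Because the 9 genes were chosen with earlier results of these data known, the count of 4 is a description and no independent support. The median log2 fold change was -0.46 over the 8 tested genes and 0.01 over all tested genes. With KO2 alone, the log2 fold changes of the 4 carboxylesterases called lower and of Ces2c ranged from -2.21 (Ces1d) to -0.85 (Ces1g).

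**Figure D1:**
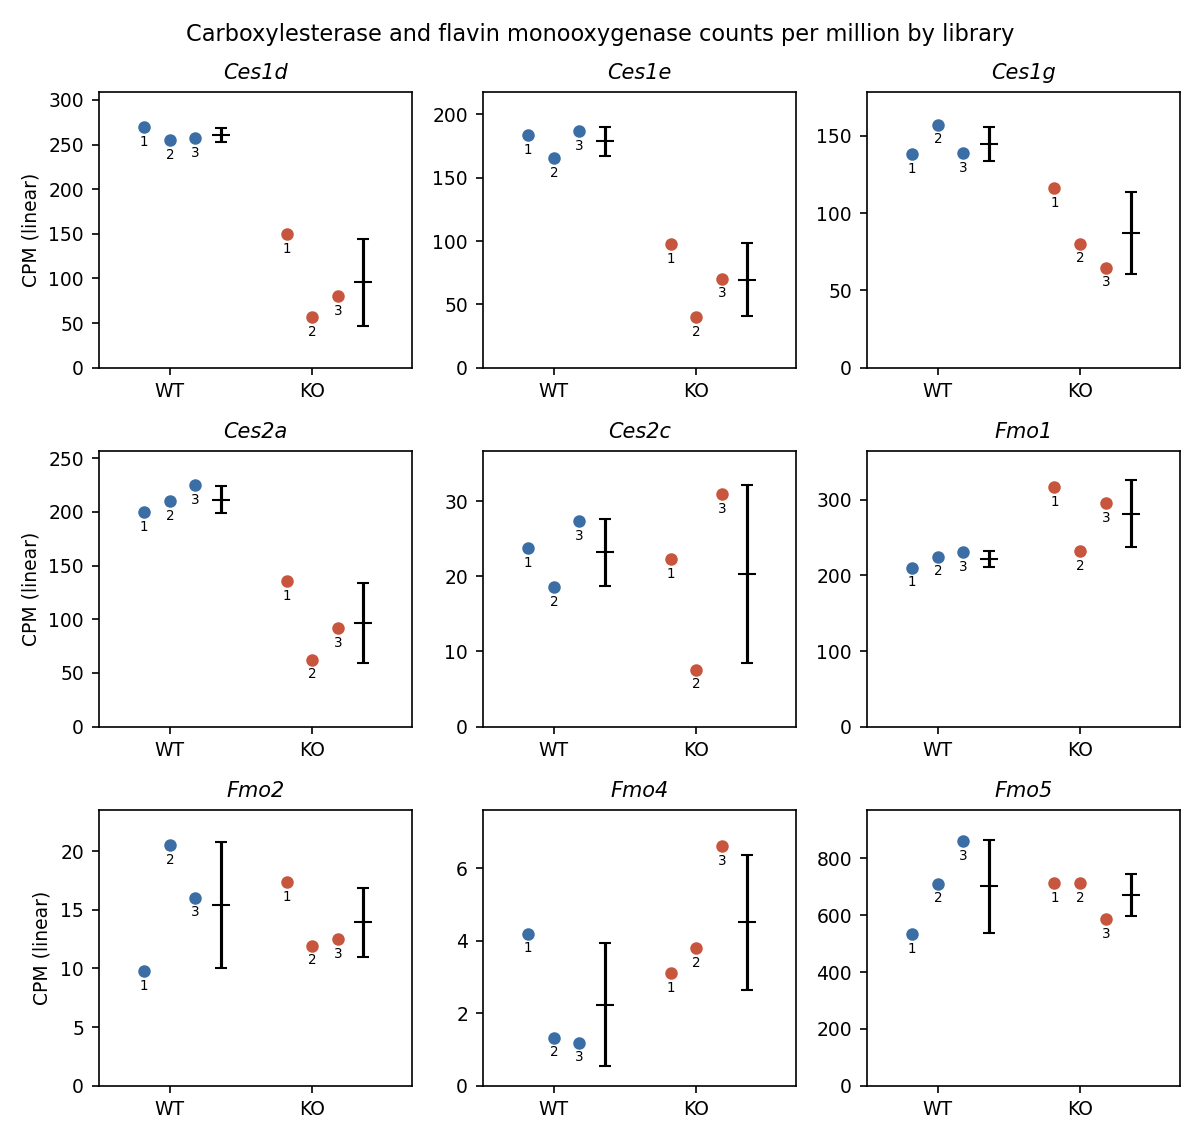
CPM of the 9 genes in each library (points, linear axis from 0, replicate number under each point), with the group mean and SD at the right of each group of 3. For Ces1d, Ces1e, Ces1g and Ces2a every knockout library lay below every wild type library, for Fmo1 every knockout library lay above, and for the other 4 genes the groups overlapped.

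The carboxylesterase genes of the mouse lie in 2 separate runs on chromosome 8. The 250 bases before the start are at chr8:93379778-93380027 for Ces1h and at chr8:104733753-104734002 for Ces2a (GRCm38.p6), so the runs are not adjacent. The Ces1 genes run on the minus strand in the order Ces1a to Ces1h, and the Ces2 genes follow on the plus strand, from Ces2a to Ces2h and on to Ces3a, Ces3b and Ces4a. Among the genes described here, Ces1d, Ces1e and Ces1g were 77.4% to 81.5% identical in coding sequence, Ces2a and Ces2c were 82.2% identical, and pairs with 1 gene from each run reached 55.2% to 56.1%. Near-identical copies could split reads in the authors' counting. Of all stretches of 50 bases in a gene's exons, the share that also occurred in another gene of the family was 1.08% for Ces1d, 2.97% for Ces1e, 1.67% for Ces1g and 1.84% for Ces2a. It was 34.3% for Ces2c, where 734 of the 772 shared stretches were in the pseudogene Ces2d-ps, so the level of Ces2c is uncertain. The 4 flavin monooxygenases shared 0 such stretches with their relatives.

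The Ces2 run held genes called in opposite directions, so the 250 bases before the start sites of Ces2a, Ces2c and Ces2e are shown first. They come from RefSeq on build GRCm38.p6, on the plus strand, where Ces2a is at chr8:104733753-104734002, Ces2c at chr8:104846818-104847067 and Ces2e at chr8:104926010-104926259. Capitals mark matches, on either strand, to AGGTCA (a nuclear receptor half-site), AGTTCA (a variant of it), TTGCNNAA (a C/EBP type motif) or TATAAA (the TATA box), which overlap nowhere in these 3 windows.
Ces2a: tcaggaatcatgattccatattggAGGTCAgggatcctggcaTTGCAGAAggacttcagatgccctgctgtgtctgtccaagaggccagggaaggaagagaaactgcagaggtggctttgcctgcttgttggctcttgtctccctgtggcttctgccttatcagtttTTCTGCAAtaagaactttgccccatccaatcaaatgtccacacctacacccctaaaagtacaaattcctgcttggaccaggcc
Ces2c: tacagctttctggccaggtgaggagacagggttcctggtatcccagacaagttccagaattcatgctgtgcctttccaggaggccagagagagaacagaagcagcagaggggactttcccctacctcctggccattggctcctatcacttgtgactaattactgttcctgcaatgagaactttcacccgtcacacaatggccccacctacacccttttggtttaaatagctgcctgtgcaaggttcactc
Ces2e: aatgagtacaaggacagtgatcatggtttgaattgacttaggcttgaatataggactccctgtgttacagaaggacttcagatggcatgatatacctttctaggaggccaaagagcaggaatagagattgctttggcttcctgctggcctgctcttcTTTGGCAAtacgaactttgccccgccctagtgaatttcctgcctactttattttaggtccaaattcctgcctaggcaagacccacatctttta
Ces2a had AGGTCA with its first base 226 bases before the start, and TTGCNNAA at 208 bases and, on the minus strand, at 83 bases. Ces2e had a single match, to TTGCNNAA on the minus strand at 93 bases, and Ces2c had 0 matches. Of 32851 RefSeq windows of this length, 14.0% held AGGTCA, 11.8% AGTTCA, 9.56% TTGCNNAA and 12.4% TATAAA. The Ces2a window was 64.6% identical to that of Ces2c and 53.2% identical to that of Ces2e. Its longest run shared with Ces2e was 17 bases, cagaaggacttcagatg, which began 205 bases before the start of Ces2a and 183 bases before that of Ces2e. A match describes the letters of the window and shows no binding.

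Ces1d, the triacylglycerol hydrolase, had 386, 385 and 433 reads in the wild type libraries, and KO1, KO2 and KO3 had 242, 104 and 231. In CPM this was 269.6, 254.6 and 257.1 against 149.9, 56.4 and 80.4. Every knockout library lay below every wild type library, and the knockout libraries differed among themselves far more than the wild type ones. The mean fell from 260 ± 8 to 95.6 ± 48.5 CPM (SD, n = 3 per group), a log2 fold change of -1.46 (SE 0.26, 95% interval -2.03 to -0.89, edgeR adjusted p = 0.0059). KO1, KO2 and KO3 held 57.5%, 21.7% and 30.9% of the wild type mean. With KO2 alone the log2 fold change was -2.21. The annotated gene Gm45909 overlaps Ces1d on the same strand and was not among the genes counted.

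Ces1e, known as egasyn, the esterase that holds β-glucuronidase in the endoplasmic reticulum, had counts of 263, 250 and 315 in wild type and 158, 74 and 202 in knockout. The CPM were 183.7, 165.3 and 187.1 against 97.8, 40.2 and 70.3, again with no overlap and with KO2 lowest. The mean fell from 179 ± 12 to 69.4 ± 28.8 CPM (SD, n = 3 per group), a log2 fold change of -1.37 (SE 0.24, 95% interval -1.88 to -0.85, edgeR adjusted p = 0.0046). With KO2 alone it was -2.16. The ratio of Ces1d to Ces1e counts, which needs no scaling between libraries, was 1.46 ± 0.08 in wild type and 1.36 ± 0.20 in knockout (SD, n = 3 per group), and its groups overlapped.

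Ces1g, an esterase with a part in hepatic lipid handling, had counts of 198, 238 and 234 in wild type and 188, 148 and 186 in knockout. The CPM were 138.3, 157.4 and 139.0 against 116.4, 80.3 and 64.7. All knockout libraries were below all wild type libraries, here with KO3 lowest and KO1 nearest to wild type. The mean fell from 145 ± 11 to 87.1 ± 26.5 CPM (SD, n = 3 per group), a log2 fold change of -0.75 (SE 0.20, 95% interval -1.17 to -0.32, edgeR adjusted p = 0.043). This call was close to the threshold: it was lost without WT1 (adjusted p = 0.093), WT2 (0.145), WT3 (0.110), KO2 (0.146) or KO3 (0.127), and with no scaling factor (0.065). Without KO1 the log2 fold change was -1.01 (edgeR adjusted p = 0.0038), and with KO2 alone -0.85. The ratio of Ces1d to Ces1g counts was 1.81 ± 0.17 in wild type and 1.08 ± 0.33 in knockout (SD, n = 3 per group), with no overlap. The count ratios were chosen after the values were seen and are given without a test.

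The other Ces1 genes of the run showed how varied the knockout libraries were. Ces1c, the esterase secreted into plasma, was at 1851, 2239 and 2281 CPM in wild type, against 1648, 1298 and 1220 CPM. It was lower with a log2 fold change of -0.61 (SE 0.16, edgeR adjusted p = 0.045), a call lost without KO2, KO3 or any wild type library (adjusted p up to 0.181), with no scaling factor (0.073), with upper quartile factors (0.051), and with KO2 alone, where the log2 fold change was -0.71 (0.060). Ces1f, a close relative of Ces1d in function, was at 450, 452 and 440 CPM against 301, 117 and 348 CPM. Its groups did not overlap, but its log2 fold change was -0.81 (SE 0.29, edgeR adjusted p = 0.13). Among the alternatives with several knockout libraries, Ces1f passed the threshold only with no expression filter. With KO2 alone its log2 fold change was -1.94. Ces1b was at 191, 137 and 141 CPM against 213, 26.6 and 364 CPM. The knockout libraries lay on both sides of wild type (log2 fold change 0.38, edgeR adjusted p = 0.75), and with KO2 alone the log2 fold change of Ces1b was -2.55.

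Ces2a, an intestinal and hepatic esterase of the Ces2 run, had counts of 286, 317 and 379 in wild type and 219, 115 and 263 in knockout. The CPM were 199.8, 209.6 and 225.1 against 135.6, 62.4 and 91.5. No knockout library reached the wild type range, and KO2 was lowest, at 29.5% of the wild type mean, where KO1 held 64.1% and KO3 43.3%. The mean fell from 211 ± 13 to 96.5 ± 36.9 CPM (SD, n = 3 per group), a log2 fold change of -1.14 (SE 0.22, 95% interval -1.62 to -0.66, edgeR adjusted p = 0.0093). With KO2 alone it was -1.76.

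Ces2c, a hepatic esterase able to hydrolyse triacylglycerol and acylcarnitines, was far less counted. Its counts were 34, 28 and 46 in wild type and 36, 14 and 89 in knockout, and its CPM 23.7, 18.5 and 27.3 against 22.3, 7.6 and 31.0. KO1 lay within the wild type range, KO2 below it and KO3 above it. The means were 23.2 ± 4.4 and 20.3 ± 11.8 CPM (SD, n = 3 per group), with a log2 fold change of -0.15 (SE 0.37, 95% interval -0.95 to 0.64, edgeR adjusted p = 0.87). That interval holds both 0 and the value fitted for Ces1g. With KO2 alone, on 14 reads, the log2 fold change was -1.61, and without KO2 the log2 fold change was 0.22.

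Ces2e moved the other way from Ces2a, its relative at 83.1% identity in coding sequence. Its counts were 314, 293 and 318 in wild type and 564, 572 and 1179 in knockout, or 219.3, 193.8 and 188.8 CPM against 349.3, 310.4 and 410.2 CPM. All knockout libraries were above all wild type libraries. The mean rose from 201 ± 16 to 357 ± 50 CPM (SD, n = 3 per group), a log2 fold change of 0.83 (SE 0.16, 95% interval 0.49 to 1.17, edgeR adjusted p = 0.0082). The call was lost without WT3 (adjusted p = 0.064) and with KO2 alone, where the log2 fold change was 0.63 (0.085). The ratio of Ces2e to Ces2a counts, which needs no scaling between libraries, was 1.1, 0.92 and 0.84 over the wild type libraries, and KO1, KO2 and KO3 gave 2.58, 4.97 and 4.48. Ces2g, the fourth tested gene of the run, had group means of 51.4 ± 4.2 CPM (wild type) and 46.8 ± 5.2 CPM (SD, n = 3 each), with a log2 fold change of -0.13 (edgeR adjusted p = 0.73).

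**Figure D2:**
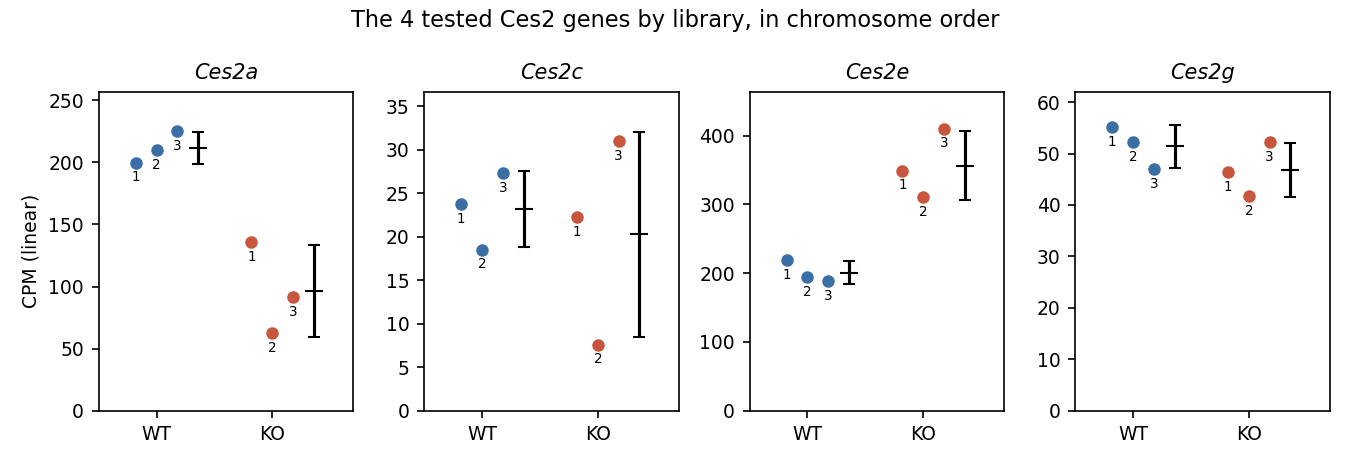
CPM of the 4 tested Ces2 genes in each library (points, linear axes from 0, replicate number under each point), with group mean and SD of 3 libraries. Ces2a lay lower and Ces2e higher in every knockout library, while Ces2c and Ces2g overlapped between the groups.

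The median fall of the 4 carboxylesterases was deepest in KO2, though Ces1g was lowest in KO3, at 44.7% of its wild type mean against 55.4% in KO2. The median log2 difference of Ces1d, Ces1e, Ces1g and Ces2a from their wild type mean (with 1 CPM added) was -0.71 in KO1, -1.93 in KO2 and -1.27 in KO3. These genes were picked because they were called lower in these libraries, which fixes the sign of their median. Over all 8 tested genes described here it was -0.17 in KO1, -1.16 in KO2 and -0.69 in KO3. The same median over the 8 hepatocyte markers was -0.19, -0.58 and -0.35 in KO1, KO2 and KO3, with 0 of 8 called and none at 0, and over all tested genes it was 0.01 to 0.02. Of the 8 Kupffer and macrophage markers, the 7 tested had medians of 0.17, 0.82 and 1.06 in KO1, KO2 and KO3. None was called, and none of the 8 was at 0 in all libraries. C1qb (log2 fold change 1.27, edgeR adjusted p = 0.0505) and Cd5l (0.83, 0.052) were just over the threshold. The sum of all 8 ranged from 140 to 257 CPM over wild type and from 210 to 429 CPM over knockout libraries. For the 8 stellate and fibroblast markers the sums were 478 to 515 CPM (wild type) and 636 to 737 CPM (knockout), and 2 of the 6 tested, Col1a2 and Dcn, were higher. The 8 endothelial markers, all tested, summed to 409 to 419 CPM (wild type) and 347 to 439 CPM (knockout). Of these, Tek was higher, at 33.2 ± 1.6 against 106 ± 17 CPM (log2 fold change 1.68, edgeR adjusted p = 9.5e-05), and Stab2 lower, at 119 ± 6 against 63.1 ± 18.7 CPM (-0.91, 0.017; SD, n = 3 per group). Fat and intestine also express carboxylesterases. The 8 adipocyte markers summed to 6.29 to 17.9 CPM in wild type and to 15.5 to 29.3 CPM without Trim24, with Lep and Retn at 0, Adipoq at 1 read, and Adrb3 higher among the 2 tested. The 5 intestine markers summed to 52.9 to 88.7 CPM and to 47.2 to 75.8 CPM, nearly all of it Fabp2, which was not called, while Vil1, Lct, Sis and Cdh17 had at most 6 reads in a library. The part of these markers in the carboxylesterase result was not tested. In whole liver, fewer cells of a type and less RNA per cell cannot be told apart. The 10 acinar markers were as low in KO2 as in wild type. KO2, a single library, also had the lowest hepatocyte marker sum, 68624 CPM, of which Alb was 50809 CPM. In KO2 alone the log2 fold changes of Ces1d, Ces1e, Ces1g and Ces2a were further below 0 than over all 3 knockout libraries. The part of acinar transcripts in the carboxylesterase result was not tested.

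The flavin monooxygenases lie mostly in 1 run on the minus strand of chromosome 1, where Fmo4, Fmo1 and Fmo2 follow each other, while Fmo5 is alone on chromosome 3. The coding sequences of Fmo1, Fmo2, Fmo4 and Fmo5 were 56.4% to 61.1% identical in pairs, so they are more distant from each other than the Ces1 genes are.

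Fmo5, a liver enzyme that can also insert oxygen next to a carbonyl group (the Baeyer-Villiger reaction), was the flavin monooxygenase with the most reads. Its counts were 762, 1075 and 1449 in wild type and 1151, 1312 and 1682 in knockout, and its CPM 532.3, 710.9 and 860.4 against 712.7, 712.0 and 585.2. All 3 knockout libraries lay within the wild type range. The means were 701 ± 164 and 670.0 ± 73.5 CPM (SD, n = 3 per group), with a log2 fold change of -0.07 (SE 0.18, 95% interval -0.46 to 0.33, edgeR adjusted p = 0.89). The interval excludes a fall as large as the fitted value of any of the 4 called carboxylesterases.

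Fmo1, which oxygenates many amine and sulfide drugs and makes taurine from hypotaurine, had counts of 301, 340 and 389 in wild type and 512, 428 and 850 in knockout. The CPM were 210.3, 224.9 and 231.0 against 317.1, 232.3 and 295.7. Every knockout library was above every wild type library, as for 12.4% of all tested genes, but KO2 exceeded WT3 by a small margin. The opposite pattern, every knockout library below, held for 4 of the 8 tested genes described here and for 12.6% of all tested genes. Fmo1 had means of 222 ± 11 and 282 ± 44 CPM (SD, n = 3 per group) and a log2 fold change of 0.34 (SE 0.16, edgeR adjusted p = 0.25). It passed the threshold in 0 of 16 alternatives, where its adjusted p ranged from 0.119 to 0.906, and with KO2 alone the log2 fold change was 0.06. The ratio of Fmo1 to Fmo5 counts was 0.33 ± 0.06 in wild type and 0.43 ± 0.09 in knockout (SD, n = 3 per group), and its groups overlapped.

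Fmo2, best known as the main flavin monooxygenase of lung, had counts of 14, 31 and 27 in wild type and 28, 22 and 36 in knockout. The CPM were 9.78, 20.5 and 16.0 against 17.3, 11.9 and 12.5, and the knockout libraries lay within the wild type range. The log2 fold change was -0.17 (SE 0.30, 95% interval -0.82 to 0.47, edgeR adjusted p = 0.80). Of 4 lung and airway markers, Sftpb, Scgb1a1 and Scgb3a2 were at 0 in every library and Sftpc had 1 read, in WT1. Fmo4, a little-studied member of the family, had counts of 6, 2 and 2 in wild type and 5, 7 and 19 in knockout, or 4.19, 1.32 and 1.19 CPM against 3.1, 3.8 and 6.61 CPM. The groups overlapped, and with no expression filter Fmo4 had a log2 fold change of 1.08 (edgeR adjusted p = 0.39), so a difference was not detectable at this depth. Fmo6 and Fmo9 were at 0 in all 6 libraries.

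**Figure D3:**
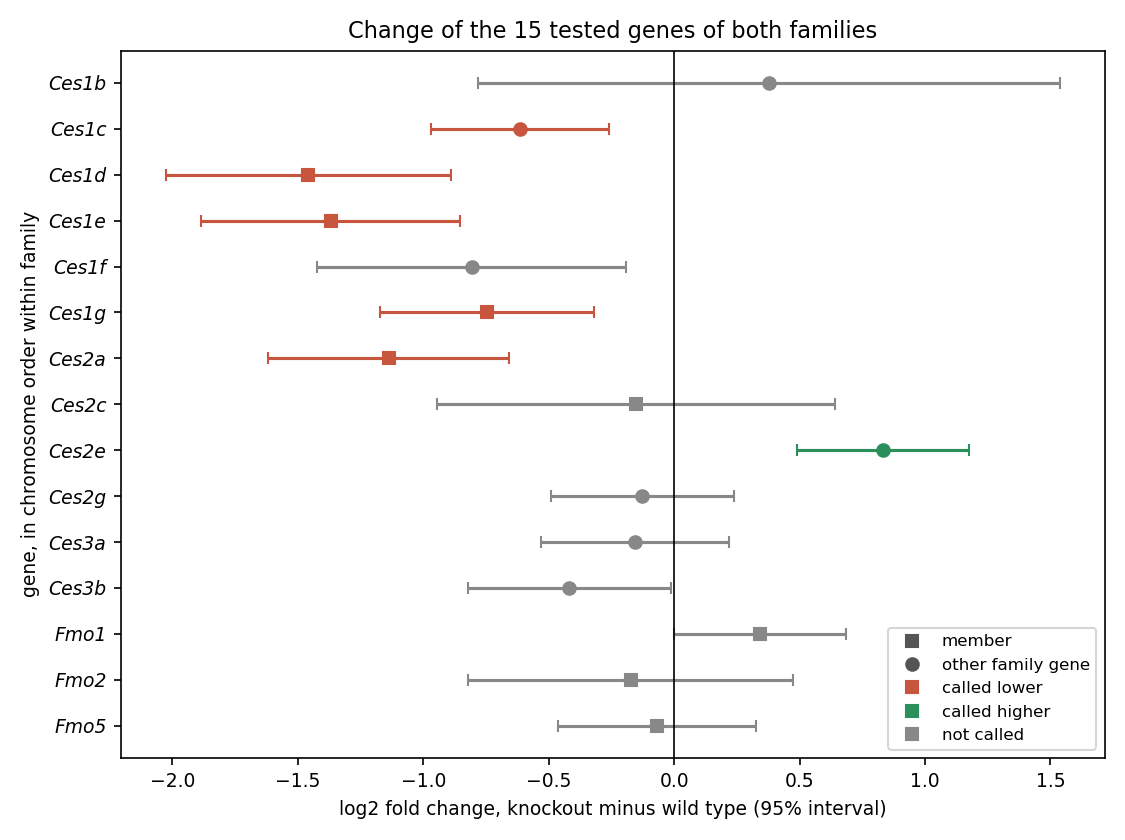
Log2 fold change, knockout minus wild type, of the 15 tested genes of both families, with 95% intervals from the edgeR fit over 3 libraries per group (squares are the genes described here, circles their relatives, colour the call). Ces1d has the lowest value, -1.46, Ces2e is the only one called higher, and the 3 flavin monooxygenases are not called.

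Levels of different genes were set side by side per kilobase of exon. In wild type the order was Fmo5 at 124 ± 29 CPM per kb, Ces1d at 110 ± 3, Ces2a at 89.7 ± 5.4, Ces1e at 81.6 ± 5.3, Ces1g at 60.7 ± 4.5 and Fmo1 at 35.2 ± 1.7 (SD, n = 3). Ces2c followed at 10.1 ± 1.9 CPM per kb, Fmo2 at 2.75 ± 0.96 and Fmo4 at 0.60 ± 0.46. The libraries of neighbours in this order overlapped for Fmo5 and Ces1d and for Ces2a and Ces1e. In knockout Fmo5 stayed first, at 118 ± 13 CPM per kb, and Fmo1 came second, at 44.7 ± 7.0, ahead of Ces2a at 40.9 ± 15.6, Ces1d at 40.3 ± 20.5, Ces1g at 36.5 ± 11.1 and Ces1e at 31.7 ± 13.2 (SD, n = 3). From Fmo1 down to Ces1e each gene overlapped the next, so that part of the knockout order was within the spread. Fmo1's place depends on the length used. With the longest transcript in place of the exons its level was 71.5 ± 3.4 CPM per kb in wild type, above Ces1g, and 90.7 ± 14.2 in knockout (SD, n = 3 per group), and its knockout libraries no longer overlapped those of Ces2a. The highest levels of the carboxylesterase family belonged to Ces1c, at 914 ± 102 CPM per kb in wild type and 598 ± 98 in knockout, and Ces3a, at 809 ± 85 and 726 ± 144 (SD, n = 3 per group).

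**Figure D4:**
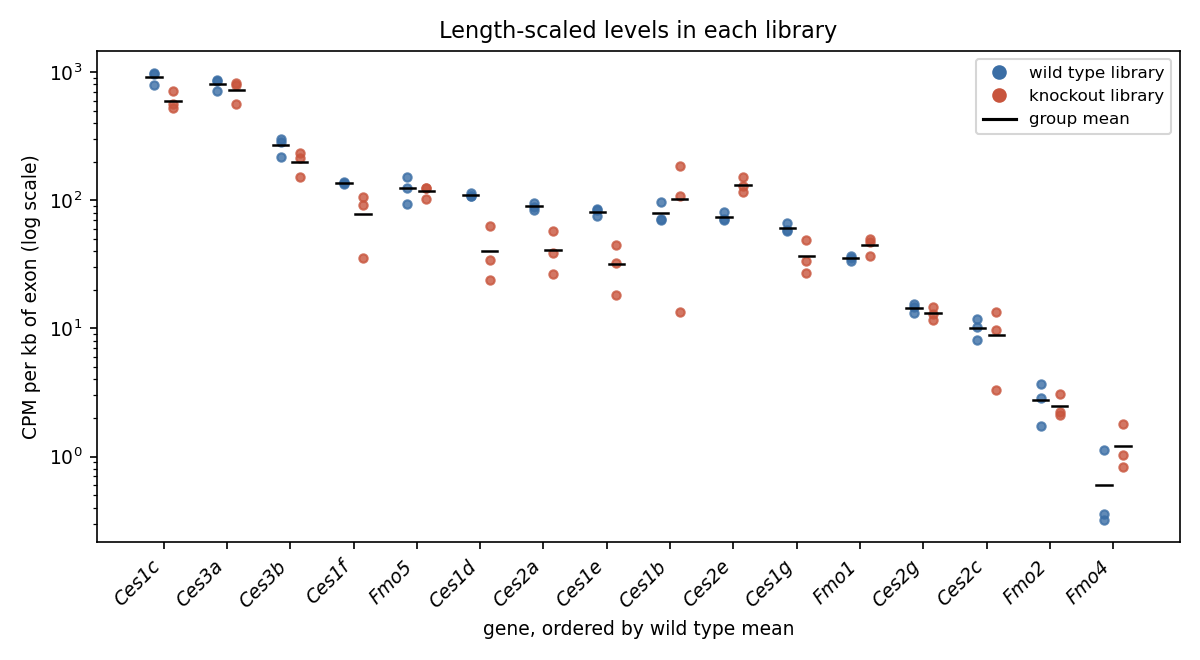
CPM per kilobase of exon (log axis) in each wild type and knockout library for the genes described here and their tested relatives, ordered by wild type mean, with bars for the mean of 3 libraries. The levels run from Ces1c, at a wild type mean of 914, to Fmo4, at 0.60, and the knockout points of Ces1d, Ces1e, Ces1g and Ces2a lie below their wild type points.

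All 18 carboxylesterase genes together gave 6620 ± 285 CPM in wild type and 5797, 3910 and 5425 CPM in KO1, KO2 and KO3. Within the family, Ces1d fell from 3.94% ± 0.18 to 1.84% ± 0.65 of carboxylesterase counts while Ces2e went from 3.04% ± 0.28 to 7.17% ± 1.01 (SD, n = 3 per group). Ces3a had means of 2126 ± 222 and 1908 ± 378 CPM and a log2 fold change of -0.16 (edgeR adjusted p = 0.67), and Ces3b had 688 ± 111 and 514 ± 109 CPM and -0.42 (0.23). These 2 genes are 95.3% identical in coding sequence, so their split is uncertain. Over the 12 tested carboxylesterases 5 were lower and 1 higher, with a median log2 fold change of -0.52. Of all tested genes, 2.65% were lower and 3.08% higher. The flavin monooxygenases summed to 941 ± 177 CPM in wild type and to 971 ± 75 CPM without Trim24 (SD, n = 3 each).

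Other esterases and lipases, enzymes that share substrates with the carboxylesterases, had 3 of 25 tested genes lower and 0 higher, with a median log2 fold change of -0.30. The shares over all tested genes were 2.65% lower and 3.08% higher. Lipc, the hepatic lipase, went from 181 ± 23 to 104 ± 3 CPM (log2 fold change -0.79, edgeR adjusted p = 0.0081), a call lost with KO2 alone (-0.77, 0.065). Acot12, an acetyl-CoA thioesterase, changed by -0.92 (0.037) and Afmid, the kynurenine formamidase, by -0.78 (0.035), and both calls were lost without KO2, KO3, WT1 or WT3, and that of Acot12 also without WT2 (Acot12 reached an adjusted p of 0.148, Afmid of 0.185). Afmid was also not called with KO2 alone (-0.97, edgeR adjusted p = 0.063) or with no scaling factor (-0.69, 0.057).

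Of 34 tested genes for other enzymes of the same first phase of drug metabolism, 2 were higher and 5 lower, with a median of -0.30. For all tested genes the shares were 3.08% higher and 2.65% lower. Cyp2e1, the ethanol-inducible cytochrome P450, had a mean of 6708 ± 176 CPM in wild type and fell to 2955 ± 974 CPM (a log2 change of -1.18, SE 0.20, edgeR adjusted p = 0.0040), and Ephx1, the microsomal epoxide hydrolase, rose from 179 ± 16 to 339 ± 36 CPM (0.92, SE 0.16, 0.0035). Aldh1b1, a mitochondrial aldehyde dehydrogenase, rose by 1.03 (0.0092) and Aldh3a2, which oxidises fatty aldehydes, changed by -0.88 (0.014), and both calls were lost without WT2 (adjusted p 0.053 and 0.067).

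Among 26 tested receptors, transcription factors and electron donors that serve these enzymes, 1 was higher and 2 lower, with a median of -0.23. Across all tested genes 3.08% were higher and 2.65% lower. Nfe2l2, the regulator of the antioxidant response, rose from 39.1 ± 6.0 to 68.6 ± 7.2 CPM (log2 fold change 0.82, edgeR adjusted p = 0.016). Cyb5r3, a cytochrome b5 reductase, fell from 328 ± 31 to 198 ± 29 CPM (-0.72, 0.019), and Cebpa, a hepatocyte transcription factor, from 170 ± 16 to 114 ± 13 CPM (-0.58, 0.044). All 3 calls were lost when single libraries were left out: Nfe2l2 without WT2, WT3 or KO3 (adjusted p up to 0.085), Cyb5r3 without WT3 or KO2 (up to 0.10), and Cebpa without KO2, KO3 or any wild type library (up to 0.172). With KO2 alone neither Nfe2l2 (log2 fold change 0.72, edgeR adjusted p = 0.103) nor Cebpa (-0.73, 0.068) was called, and Cebpa was not called with no scaling factor (-0.49, 0.080) or upper quartile factors.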

How the data were processed

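Total RNA of homogenised liver was extracted with TRIzol, per the labels' protocols. The authors deposited, for each library, a read count for every gene symbol, not normalized. HTSeq, TopHat 1.4.1, edgeR and the mm9 assembly are named in the submitters' processing notes, with no role given, and a strand setting is not given in the sources used. Reads in no gene, 93.3% to 95.8% of counted reads, were left out. Every level and call here therefore rests on the small share counted in genes, 4.22% to 5.40% in wild type and 4.74% to 6.69% in knockout libraries. The cause of this small share was not tested. Columns left unused numbered 0.

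Counts were tested with edgeR 4.0.16 (R 4.3.3; quasi-likelihood F test, two-sided, TMM factors, filterByExpr with a minimum count of 10, genotype as the only term), with Benjamini-Hochberg adjustment over 9180 genes and a threshold of 0.05. A negative log2 fold change means lower in knockout. The fit was tested on simulated data, where it recovered 8.45% of 1.5-fold, 47.2% of 2-fold and 98.4% of 4-fold changes. A gene that was not called may therefore still have changed. Alternatives covered scaling, test (DESeq2 1.42.0, limma-voom 3.58.1, the edgeR exact test), filter, threshold, replicate block, each library left out and KO2 alone. Exon lengths and coding sequences came from GENCODE M21, and 7 of the 9 genes had an entry in the RefSeq promoter table.

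The 9 genes, the lists and the tests were chosen with earlier results of these data known. Named besides them were Trim24, every tested relative, and up to 4 called genes of each list by smallest adjusted p. A relative of these genes is not reported here.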

Additional observations from a re-analysis of the deposited data

How the results depend on the processing

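Ces1d, Ces1e and Ces2a stayed lower at an adjusted p under 0.05 in each alternative of scaling, test, filter and block, and without any single library. With single libraries left out, the adjusted p reached 0.028 for Ces1d and 0.027 for Ces1e. For Ces2a it reached 0.0498, without WT3, barely under the threshold. The count of the 9 genes called lower was 4, and 3 to 4 with single libraries left out. With no scaling factor it was 3, and the split over all genes moved from 53.8% to 68.4% of calls higher. Directions turned only for uncalled genes: Ces2c ranged from -0.67 to 0.22 with single libraries left out, Fmo2 from -0.41 to 0.071, Fmo5 from -0.23 to 0.10, Ces1b from -0.40 to 0.90 and Ces3a from -0.26 to 0.0056. Fmo5 was also 0.025 with no scaling factor and 0.018 with KO2 alone, and Ces1b -0.26 with limma-voom and -2.55 with KO2 alone. The cause was not tested.

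Of other carboxylesterases 2 were called, and 1 with no scaling factor, with upper quartile factors or at a threshold of 0.01, and 0 to 2 without single libraries. With no expression filter 7 other esterases and lipases, 11 other phase I enzymes, 5 sensors and partners and 1085 genes in all were called, against 3, 7, 3 and 526. At 0.01 these were 1, 3, 0 and 185, and at 0.1 882 genes in all were called. Without single libraries they ranged from 1 to 5, 3 to 10, 0 to 5 and 222 to 772.

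To look for pairing, the mean of its group was subtracted from each gene's log CPM, and the remaining deviations were correlated between libraries. Deviations of same-numbered libraries correlated at -0.07, 0.08 and 0.03, and those of the other pairs at -0.12 to 0.09. The deviations of WT1 and WT3 correlated best with those of KO3, and those of WT2 with KO2. Correlations this small do not settle whether the replicate numbers pair the libraries. With the replicate block 4 of the 9 genes and 1 other carboxylesterase were called, Ces1c was lost (adjusted p = 0.060), Ces1b was -0.10, and 545 genes in all were called.

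Low depth limits Fmo4, Fmo2 and Ces2c most.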
